A study of Mus musculus with 18 samples.

Results

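Naive pluripotency transcription factors are the nuclear proteins that keep mouse embryonic stem cells able to form every tissue of the embryo, and 10 of their genes were followed here: Pou5f1, Sox2, Nanog, Klf4, Klf2, Esrrb, Zfp42, Tbx3, Sall4 and Tfcp2l1. They were chosen by name, and their probes were found by the accession each probe carries, through RefSeq. All 10 were on the array, of 34289 gene names in all and 19259 genes named in RefSeq, with 14 probes between them. Sall4 had 3 probes, Esrrb and Tbx3 had 2 each and the other genes had 1, and none of these probes was saturated.

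RNA of 6 groups of 3 samples was measured on Agilent one-color arrays, 1 sample to an array. ES cells were early-passage mouse embryonic stem cells from blastocysts, grown without feeder cells on gelatin with leukemia inhibitory factor (LIF). ED cells were isogenic cells differentiated from them without LIF, for at least 4 days in the methods of the study and for a week or until stem cell markers were gone in the sample labels. Both were unirradiated. The other groups were ES cells 15 min (ESRE) and 4 h (ESRL) after 10 Gy of ionizing radiation (IR) and ED cells 15 min (EDRE) and 4 h (EDRL) after the same dose. The markers named for that loss include the proteins of Pou5f1, Sox2 and Nanog, so low values of these 3 genes in ED cells are partly how the group was defined.

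LIF acts through STAT3 on Klf4, Tfcp2l1 and other factors, and MEK inhibition and WNT signaling act on Nanog, Esrrb and Tfcp2l1 among them. The factors bind each other's regulatory regions and those of shared targets, often side by side, with OCT4 (from Pou5f1) and SOX2 joined on a composite site. When LIF is withdrawn the naive factors are known to decline, and formative, primed and lineage genes follow in turn.

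Signals were put on the log2 scale relative to the 75th percentile of their array, so that 0 is the brightness of that percentile and -1 is a signal 2-fold dimmer. Changes were taken between samples on the same probe. Levels of different probes are not comparable as amounts of RNA, and sums over genes add such levels. For 15 arrays that percentile was a signal of 2806 to 4268. EDRE had 2 much dimmer arrays, replicate 2 (875) and replicate 3 (1155), and ESRL had 1, its first (1952). The scanner software marked 24.4% and 23.8% of spots as outliers on the dim EDRE arrays, where only 49.5% and 55.5% of probes exceeded background clearly, so values that rest on them are uncertain. Some are also given without them. The arrays had 6 scan times. One held the 3 ES arrays only. Another held ED together with the last ESRE replicate, another EDRL together with the first EDRE replicate, and another the first 2 replicates of ESRE and the last 2 of ESRL. The dim EDRE arrays had a scan time of their own, and so had the dim ESRL array, so dimness and scan time cannot be told apart for them. No unirradiated group shared a scan time with its own irradiated samples. A spot marked as an outlier was left out of the tests and is named as marked where its value is printed.

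Of the 10 genes, 8 were lower in ED than in ES, Klf4 was not counted, and Zfp42 had no ES value because its ES spots were all marked. To count, a gene needed 1 probe with a limma adjusted p under 0.05 and a log2 difference over 1 in size. Probes were tested if every array of either group showed them well above background. All 10 genes passed this filter on low values. Zfp42 and Tfcp2l1 passed through their ES arrays only, and the other 8 were well above background on all 3 ED arrays too. By this rule 26.7% of all genes tested were lower in ED and 14.9% higher. This balance depended on the scaling: with arrays set to their medians 4876 of 26228 genes were lower and 6971 higher, and with quantile normalization 5342 and 5670. The median difference was -7.55 over the 9 genes with a value and -0.19 over all genes tested. A gene bright in ES alone could only be lower, so the count of Tfcp2l1 follows from the filter. At 15 min after IR, 8 of 9 genes were lower in EDRE than in ESRE, beside 28.1% of all genes, and at 4 h, 8 of 9 were lower in EDRL than in ESRL, beside 25.0%. Pou5f1, Zfp42 and Tfcp2l1 in the first of these comparisons, and Zfp42 and Tfcp2l1 in the second, passed the filter through the ES-derived group alone and could only be lower. Klf4 was again the gene not counted, and Nanog had no value because its ESRE and ESRL spots were marked. With marked spots kept, 9 of 10 were lower in each of these comparisons, a setting for which no share of all genes is given here. In the comparisons after IR, Nanog then passed the filter through the ES-derived group alone and could only be lower. In such bulk samples, fewer cells that express a gene and less RNA of it per cell cannot be told apart.

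**Figure D1:**
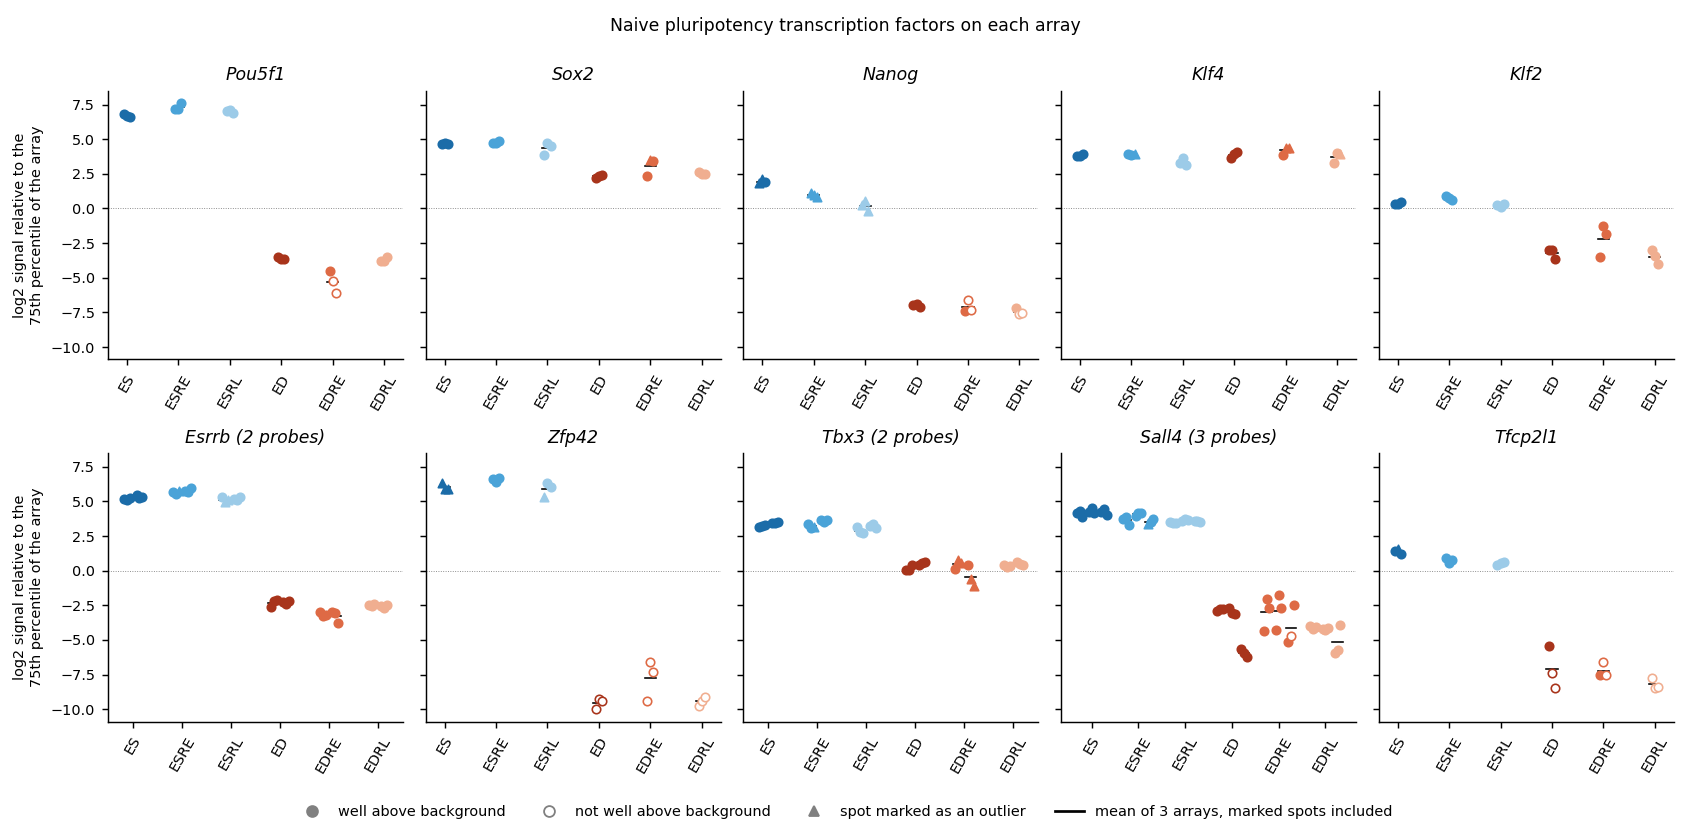
Log2 signal of each gene by array and group, with 0 at the array's 75th percentile; points are arrays, open points were not well above background, triangles are spots marked as outliers and bars are means of 3 arrays. Pou5f1 lies between 6.63 and 7.58 in ES, ESRE and ESRL and between -6.07 and -3.47 in ED, EDRE and EDRL, while Klf4 lies between 3.11 and 4.39 in all 6 groups.

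Pou5f1 encodes OCT4, the POU factor without which the inner cell mass does not form pluripotent cells. Its signal was 6.80, 6.64 and 6.63 in ES, 7.20, 7.17 and 7.58 in ESRE, and 7.03, 7.08 and 6.92 in ESRL. In ED it was -3.50, -3.65 and -3.62, in EDRL -3.81, -3.78 and -3.47, and in EDRE -4.52, -5.22 and -6.07, the last 2 of these not well above background. The ES-derived and ED-derived arrays were far apart, and among the ED-derived groups only EDRE stood below the others without overlap. The difference of ED from ES was -10.29 (SE 0.279, adjusted p = 7.16e-13), or 1248-fold. It was -10.70 for EDRL against ESRL. For EDRE against ESRE the measured difference was -12.59, with 2 of 3 EDRE values at background, so its size is uncertain, and without the 3 dim arrays it was -11.83. The ED signal still exceeded background on all 3 arrays.

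Sox2 encodes the HMG-box partner of OCT4. The ES values were 4.67, 4.69 and 4.69, those of ESRE 4.75, 4.75 and 4.88, and those of ESRL 3.89, 4.75 and 4.52. ED gave 2.21, 2.31 and 2.43, EDRE 2.38, 3.51 (marked) and 3.39, and EDRL 2.62, 2.47 and 2.48. Every array of the ED-derived groups was dimmer than every array of the ES-derived groups, yet all were well above background. The difference of ED from ES was -2.37 (SE 0.246, adjusted p = 1.75e-06), or 5.15-fold, and it was -1.91 after 15 min (-2.42 without the 3 dim arrays) and -1.86 after 4 h. Sox2 thus kept a larger share of its ES signal in ED than Pou5f1 or Nanog did. For EDRE against ESRE the values of the authors' matrix gave -0.99, short of the limit of 1.

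Nanog encodes the homeodomain factor that sustains self-renewal when its level is high. Its promoter is shown because, of the 8 genes with a promoter to search, it was the only one with the composite Sox-Oct motif searched for, CATTGTNATGCA, in the bases before its start sites. The sequence before the first of 2 start sites that RefSeq lists on the plus strand of chromosome 6 (GRCm38.p6, chr6:122707239-122707488) has the match in capitals, on the reverse strand.
Nanog: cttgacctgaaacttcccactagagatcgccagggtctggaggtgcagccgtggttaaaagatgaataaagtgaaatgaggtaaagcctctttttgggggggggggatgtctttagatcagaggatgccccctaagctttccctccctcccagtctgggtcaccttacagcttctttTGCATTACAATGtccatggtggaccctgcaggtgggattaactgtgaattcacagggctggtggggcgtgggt

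The Nanog signal was 1.82, 2.13 and 1.88 in ES, the first 2 marked. It was 1.11, 1.00 and 0.84 in ESRE and 0.27, 0.55 and -0.19 in ESRL, all 6 marked. In ED it was -6.93, -6.88 and -7.11, in EDRE -7.37, -6.59 and -7.35, and in EDRL -7.18, -7.61 and -7.57, with 2 arrays of EDRE and 2 of EDRL not well above background. The ES-derived groups stood in the order ES, ESRE, ESRL with no overlap, and far below them EDRE overlapped ED and EDRL, which did not overlap each other. The difference of ED from ES was -8.85 with the 1 ES spot not marked, where the spread came from other groups and no p is given. It was -8.91 (SE 0.241, limma adjusted p = 2.41e-13) with marked spots kept, where Nanog was also counted as lower. With marked spots kept it was -8.09 for EDRE against ESRE and -7.66 for EDRL against ESRL, sizes that are uncertain since only 1 array of EDRE and 1 of EDRL was well above background. The dimmest signals well above background on the 3 ED arrays were at -7.69, -7.35 and -7.28. Nanog in ED lay near them, so the size of the difference of ED from ES is uncertain too.

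Esrrb encodes an orphan nuclear receptor that can take the place of Nanog in self-renewal. Its first probe gave 5.19, 5.12 and 5.22 in ES and -2.64, -2.19 and -2.08 in ED, and its second 5.47, 5.22 and 5.29 in ES and -2.26, -2.39 and -2.21 in ED. The probes lay within 0.57 of each other on every array. ESRE was highest on both probes, at 5.70, 5.57 and 5.78 (marked) on the first and 5.77, 5.66 and 5.96 on the second. ESRL stood at 5.29, 4.93 and 5.10, the last 2 marked, and at 5.17, 5.13 and 5.29. In EDRE the probes gave -2.97, -3.28 and -3.22 and -2.99, -3.07 and -3.79, and in EDRL -2.47, -2.56 and -2.43 and -2.53, -2.70 and -2.50. EDRE was thus the lowest group on both probes, with no array overlapping ED or EDRL. The differences of ED from ES were -7.48 (SE 0.170, adjusted p = 8.23e-12) and -7.62 (SE 0.188, adjusted p = 3.36e-13).

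Tfcp2l1 encodes a CP2-family factor that LIF and STAT3 act on. It gave 1.41, 1.54 (marked) and 1.21 in ES, 0.93, 0.54 and 0.76 in ESRE, and 0.38, 0.57 and 0.60 in ESRL. In ED it gave -5.40, -7.41 and -8.45, in EDRE -7.56, -6.59 and -7.53, and in EDRL -7.77, -8.46 and -8.37, and only replicate 1 of ED and replicate 1 of EDRE were well above background. ES was above ESRE and ESRL, which overlapped each other. The measured difference of ED from ES was -8.39, taken against ED values of which 2 of 3 were at background, so its size and its p have little meaning. Since no EDRL array was well above background, the signal in ESRL was at least 254-fold that in EDRL, taken against the dimmest signals that were well above background on those arrays. Within the ED-derived groups Tfcp2l1 was too dim to be tested.

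Klf4 and Klf2 encode Krüppel-like zinc finger factors that share binding sites in embryonic stem cells. Klf4 gave 3.81, 3.80 and 3.92 in ES, 3.91, 3.82 and 3.93 (marked) in ESRE, and 3.26, 3.65 and 3.11 in ESRL. It gave 3.64, 3.92 and 4.11 in ED, 3.87, 4.39 and 4.39 in EDRE, the last 2 marked, and 3.26, 4.01 and 3.96 (marked) in EDRL. ED and ES overlapped, and no pair of neighbors in the order of the 6 groups was free of overlap. The difference of ED from ES was 0.05 (SE 0.227, adjusted p = 0.898), after 15 min it was 0.00 with the 1 EDRE spot not marked and 0.33 with marked spots kept, and after 4 h it was 0.29 (SE 0.250). This value depended on the scaling, since with arrays set to their medians it was 0.69 for ED against ES, still under the limit of 1, and that scaling moved the median of all probes by 0.64. In the values of the authors' matrix Klf4 was higher in EDRE than in ESRE by 1.04 (adjusted p = 0.000504), where adjusted p ranged from 0.000504 to 0.994 over the alternatives.

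Klf2 gave 0.32, 0.31 and 0.49 in ES, 0.90, 0.79 and 0.61 in ESRE, and 0.25, 0.14 and 0.35 in ESRL. ED had -3.02, -3.0 and -3.62, EDRE -3.53, -1.23 and -1.84, and EDRL -3.01, -3.40 and -4.01. All ED-derived arrays lay below all ES-derived arrays, and the brightest of them were the replicates 2 and 3 of EDRE with the dim arrays. The difference of ED from ES was -3.59 (SE 0.428, adjusted p = 4.49e-06), or 12.0-fold, with -2.97 after 15 min and -3.72 after 4 h. Without replicates 2 and 3 of EDRE and replicate 1 of ESRL, EDRE against ESRE was -4.30.

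Tbx3 encodes a T-box repressor that acts downstream of phosphatidylinositol 3-kinase signaling in these cells. Its first probe gave 3.13, 3.23 and 3.32 in ES and 0.06, 0.07 and 0.41 in ED, and its second 3.41, 3.45 and 3.48 in ES and 0.42, 0.52 and 0.59 in ED. The fall was partial, to a level well above background on all 3 ED arrays. The differences were -3.05 (SE 0.168, adjusted p = 1.64e-08) and -2.93 (SE 0.134, adjusted p = 9.48e-10). Both probes were near these levels in the irradiated groups, except on replicates 2 and 3 of EDRE, where all 4 spots were marked, leaving 1 EDRE value per probe in the tests, and the probes parted, the first at 0.78 and 0.57 and the second at -0.58 and -1.12.

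Sall4 encodes a spalt-like zinc finger protein that binds with OCT4 and NANOG. Its probes gave 4.15, 4.29 and 3.89, then 4.24, 4.49 and 4.15, then 4.23, 4.44 and 4.04 in ES. In ED the first gave -2.89, -2.79 and -2.77 and the second -2.66, -3.05 and -3.12, but the third was at -5.65, -5.96 and -6.22. The probes lay within 0.26 of each other on the ES arrays and 2.99 to 3.46 apart on the ED arrays, so the size of the difference depended on the probe. It was -6.93 (SE 0.391), -7.24 (SE 0.418) and -10.18 (SE 0.601), with adjusted p of 1.10e-09, 1.44e-09 and 4.50e-09. In EDRL the first probe gave -3.96, -4.19 and -4.10 and the second -4.22, -4.28 and -4.17, below all ED arrays. In EDRE the first probe gave -4.32, -2.04 and -2.68 and the second -4.30, -1.77 and -2.71, so that replicate 1 lay with EDRL, which shares its scan time, and replicates 2 and 3 lay near or above ED. The third probe gave -5.16, -4.72 (not well above background) and -2.44 in EDRE, all above its ED arrays. Its difference of EDRE from ED was 1.84 (SE 0.596, limma adjusted p = 0.0716) and was not counted.

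Zfp42, also known as Rex1, encodes a zinc finger protein whose expression is used as a marker of the naive state. Its promoter is shown because it held 2 of the motifs searched for, on the minus strand of chromosome 8 (GRCm38.p6, chr8:43307010-43307259): in capitals are first the octamer ATGCAAAT, on the reverse strand, and then the KLF motif CCACACCC.
Zfp42: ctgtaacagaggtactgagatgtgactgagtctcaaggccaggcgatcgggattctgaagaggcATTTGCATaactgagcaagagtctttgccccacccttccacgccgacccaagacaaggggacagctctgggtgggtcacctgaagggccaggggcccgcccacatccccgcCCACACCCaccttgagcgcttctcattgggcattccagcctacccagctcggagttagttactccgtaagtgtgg

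The Zfp42 signal was 6.33, 5.89 and 5.89 in ES, all marked, 6.64, 6.37 and 6.68 in ESRE, and 5.31 (marked), 6.32 and 6.07 in ESRL. No ED, EDRE or EDRL array was well above background, the values lying between -10.01 and -6.59. The gene thus went from a bright signal in every ES-derived sample to none above background in every ED-derived sample. Against the dimmest signals well above background, Zfp42 in ESRE was at least 6285-fold that in EDRE and in ESRL at least 10579-fold that in EDRL, where the marked spot was kept. The direction follows from the filter, and no p is given for it. For ES, with its marked spots kept, the signal was at least 11390-fold that in ED.

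**Figure D2:**
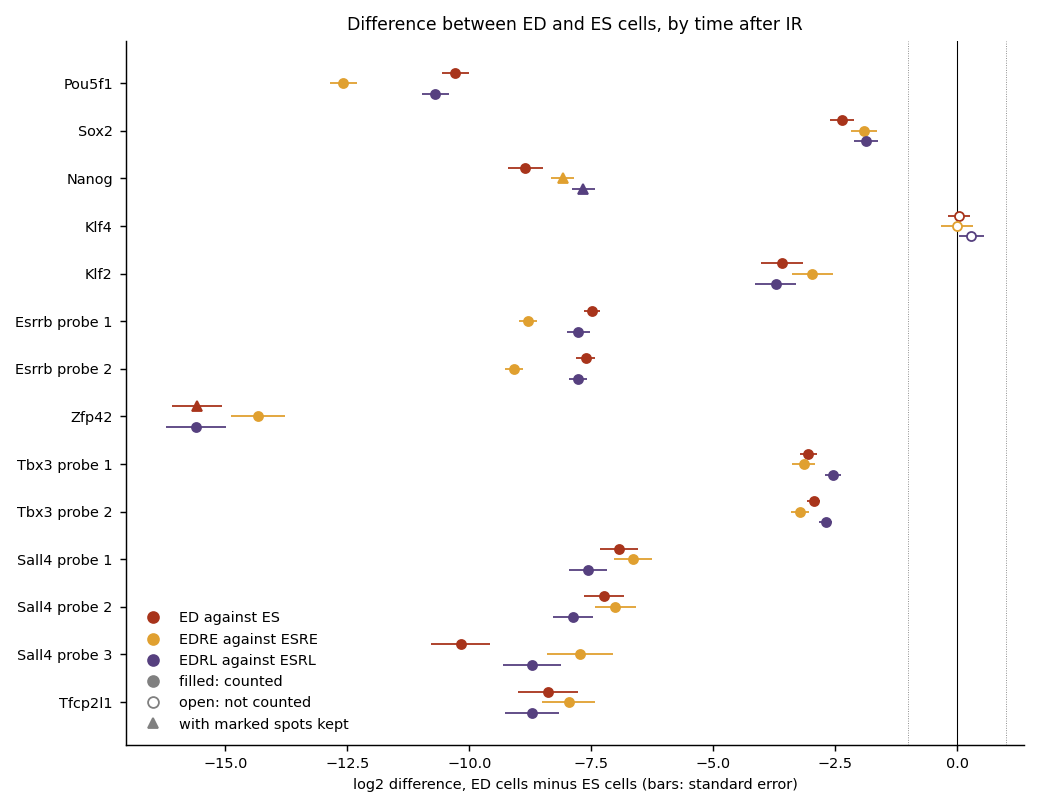
Log2 difference between ED and ES cells for each probe, without IR (ED against ES), 15 min after IR (EDRE against ESRE) and 4 h after IR (EDRL against ESRL); bars are standard errors, filled points were counted as lower, and triangles are values with marked spots kept. Klf4 lies near 0 in all 3 comparisons, Sox2, Tbx3 and Klf2 between -3.72 and -1.86, and Zfp42, at background in the ED-derived groups, lowest.

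The genes thus differed in how far apart ED and ES lay. Sox2, Klf2 and Tbx3 had differences between -3.59 and -2.37 and stayed well above background on all 3 ED arrays, as did Pou5f1, Nanog, Esrrb and Sall4 at differences between -10.29 and -6.93. Nanog did so only narrowly, so the size of its difference is uncertain. Zfp42 was above background on 0 ED arrays and Tfcp2l1 on 1. Summed over the 10 genes, the signal was 289 times that of the 75th percentile in ES (275 to 313 over the arrays) and 21.9 times in ED (19.0 to 24.7). Pou5f1 was the largest part of this sum on every ES array and Klf4 on every ED array, so it says little of the other genes. Leaving out any 1 array of ES, ED, ESRE, EDRE, ESRL or EDRL left at least 7 genes lower, with no share of all genes given beside it. Such counts can include genes that passed the filter through the ES-derived group alone and could only be lower. No ES array shared a scan time with an ED array, so within 1 scan time ED could be set only against replicate 3 of ESRE. There Pou5f1 differed by -11.17, Sox2 by -2.56, Nanog by -7.82 (ESRE spot marked), Klf4 by -0.04 (marked) and Klf2 by -3.82. Esrrb differed by -8.09 (marked) and -8.25, Tbx3 by -2.99 (marked) and -3.13, Sall4 by -6.14, -7.11 and -9.67, and Tfcp2l1 by -7.85, with 2 of its 3 ED values at background, as all 3 of Zfp42 were. These differences set irradiated ES cells against unirradiated ED cells and come from 1 array on the ES side.

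Promoters of 8 of the 10 genes, 11 in all, were in the RefSeq table, those of Tbx3 and Sall4 not. Each spans 250 bases before and 50 after a start site, and 4 motifs were searched for on both strands. The Sox-Oct motif was in 0.0274% of 32851 promoters of this length, 9 in number, and both Nanog promoters, which overlap, were among them. Its first base lay at -73 from one start site and -149 from the other. The octamer, which can overlap the Sox-Oct motif, was in 1.74% and the KLF motif in 3.56% of all promoters, and Zfp42 was the only one of the 8 genes with either. The ESRRB motif TCAAGGTCA was in 0.423% of all promoters and in 0 of these 11. A match describes letters and was not tested as a binding site.

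After IR, 0 of 8 genes with a value changed in ESRE against ES by the limma test, beside 0.463% of all genes tested, and 0 had an unadjusted p under 0.05 with a log2 change over 1. The methods' own test of the study, run on the same values, also counted 0. Nanog had no value because all its ESRE spots were marked, and Zfp42 none because all its ES spots were. Pou5f1 gave 0.62 (SE 0.279, adjusted p = 0.499), with the 3 ESRE arrays above the 3 ES arrays. Esrrb gave 0.46 and 0.47, again with no overlap, and Klf2 gave 0.39 (SE 0.427). Sall4 went the other way, at -0.48, -0.22 and -0.61, without overlap on the first and last probe, and so did Tfcp2l1, at -0.57, also without overlap.

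In ESRL against ES, 0 of 8 genes changed, beside 7.59% of all genes, with 0 at an unadjusted p and 0 with the methods' own test. Klf4 gave -0.50 (SE 0.226, adjusted p = 0.198), all 3 ESRL arrays lying below all ES arrays. Tfcp2l1 gave -0.79, the Sall4 probes -0.63, -0.64 and -0.68, and Pou5f1 0.31. Nanog could be compared only with its marked spots kept, and was then lower in ESRL by more than the limit, at -1.73 (SE 0.241, adjusted p = 0.000967). In the values of the authors' matrix its change was -1.42 (adjusted p = 0.00338). With scan time as a random block and marked spots kept, an alternative chosen after seeing the data, it was -1.79 with an adjusted p of 1.000. The ES arrays shared their scan time with no other group, so this setting cannot tell scan time from group. Its p therefore does not decide the call. In ESRE against ES the Nanog change with marked spots kept was -0.96 (adjusted p = 0.121).

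Between the times, in ESRL against ESRE, 0 of 9 genes changed, beside 5.22% of all genes, with 0 at an unadjusted p and 0 with the methods' own test. The largest were Esrrb's second probe at -0.60 (SE 0.185, adjusted p = 0.0706) and Klf4 at -0.53 (SE 0.248, adjusted p = 0.255). Within the scan time that held 2 arrays of each group, Esrrb differed by -0.62 (both ESRL spots marked) and -0.50, Klf4 by -0.49, Klf2 by -0.60, Tbx3 by -0.49 and -0.41, Pou5f1 by -0.18 and Sox2 by -0.12. Zfp42 differed by -0.31, Tfcp2l1 by -0.14 and the first 2 Sall4 probes by -0.33 each, while the third Sall4 probe was higher by 0.08 (ESRE replicate 1 marked). Nanog, with all 4 spots marked, differed by -0.87.

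**Figure D3:**
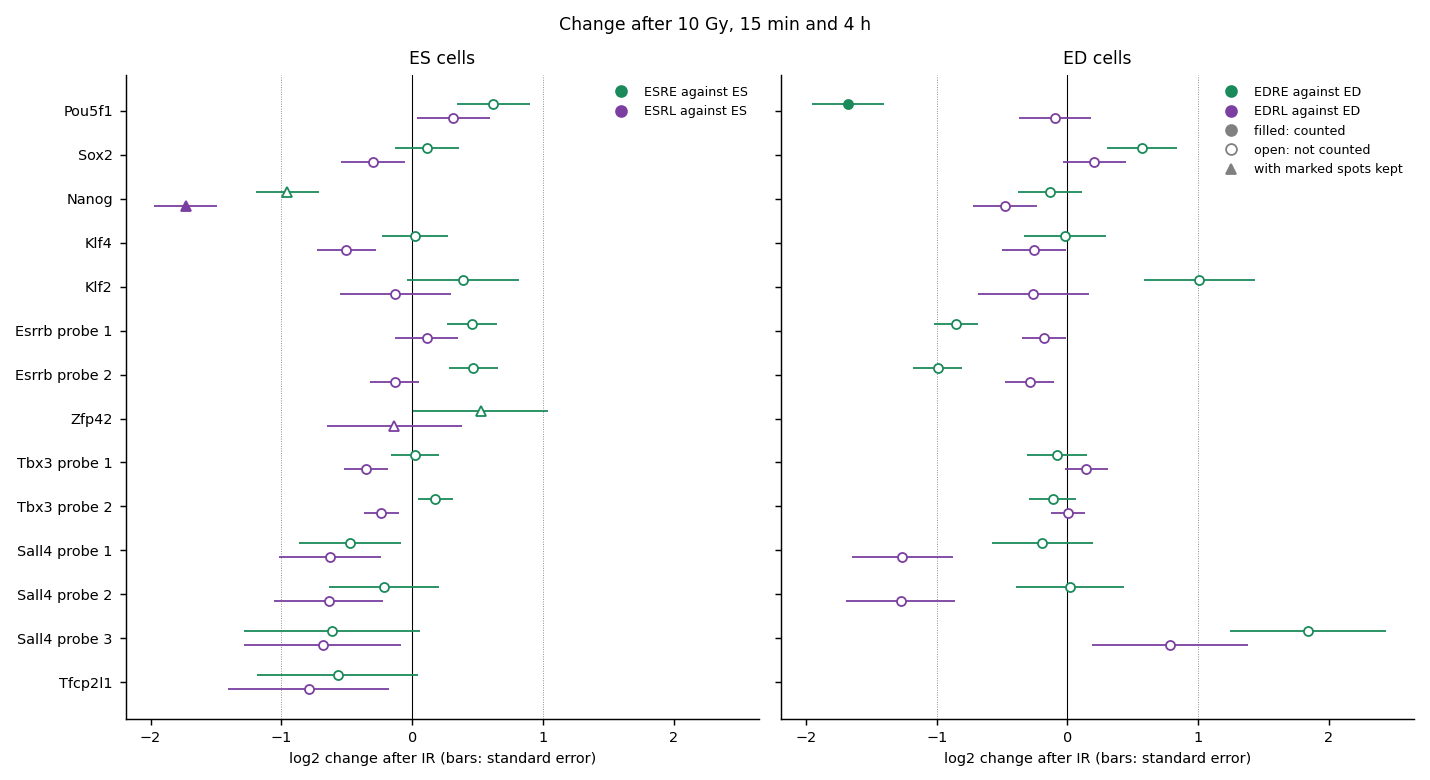
Log2 change of each probe 15 min and 4 h after 10 Gy in ES cells (left) and ED cells (right); bars are standard errors, filled points were counted as changed, dotted lines mark a change of 1 in size and triangles are values with marked spots kept. Pou5f1 in EDRE against ED, at -1.68, and Nanog in ESRL against ES with marked spots kept, at -1.73, are the filled points.

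In ED cells 15 min after IR, 1 of 8 genes changed, Pou5f1, beside 5.20% of all genes tested. At an unadjusted p 3 did, with Klf2 at 1.01 and the third Sall4 probe at 1.84. Pou5f1 passed the filter through ED alone, the group where it is high, and was not tested when both groups had to be above background. Its measured change in EDRE against ED was -1.68 (SE 0.276, adjusted p = 0.00634), with all 3 EDRE arrays below all ED arrays. Replicates 2 and 3 of EDRE, on which Pou5f1 was not well above background, carried much of it. Replicate 1 alone stood 0.93 below the ED mean, and the change without replicates 2 and 3 and without replicate 1 of ESRL was -0.93, under the limit of 1. With normexp background correction it was -0.02, and with scan time as a random block -1.32 with an adjusted p of 1.000. No ED array shared a scan time with an EDRE array, so that block cannot tell scan time from IR. Over the alternatives the adjusted p ranged from 2.02e-05 to 1.000.

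The Esrrb probes gave -0.85 (adjusted p = 0.0174) and -0.99 (adjusted p = 0.0109) in the same comparison, past the p threshold and short of the limit of 1, with no overlap on either probe. Without replicate 1 of ED the first probe was at -1.02, and without replicate 2 of ED, replicate 1 of EDRE or replicate 2 of EDRE the second was at -1.05, -1.14 and -1.10. The count of genes in EDRE against ED thus rose to 2 without replicate 1 of ED, replicate 2 of ED or replicate 2 of EDRE, with no share of all genes given beside it. Without replicate 1 of EDRE it rose to 5, where 5419 of 16970 genes of the array were counted in place of 1165 of 22404. Sox2 was then at 1.08, Klf2 at 1.67 and the third probe of Sall4 at 2.36, with Pou5f1 at -2.05. The EDRE side of these values rests on the dim replicates 2 and 3, and for Sox2, whose spot on replicate 2 was marked, on replicate 3 only.

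The array-by-array values show how the EDRE samples differed from one another. Replicate 1 stood below the ED mean on 11 of 14 probes, with a median of -0.36, replicate 2 above it on 10 of 14, with a median of 0.55, and replicate 3 above it on 8 of 14, with a median of 0.19. Most of the higher values of replicate 2 were marked or at background, and only those of Klf2 and the first 2 Sall4 probes were neither. The EDRL arrays stood below the ED mean on 9, 9 and 8 of the 14 probes, with medians of -0.20, -0.19 and -0.10. The part of array brightness in these differences was not tested.

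**Figure D4:**
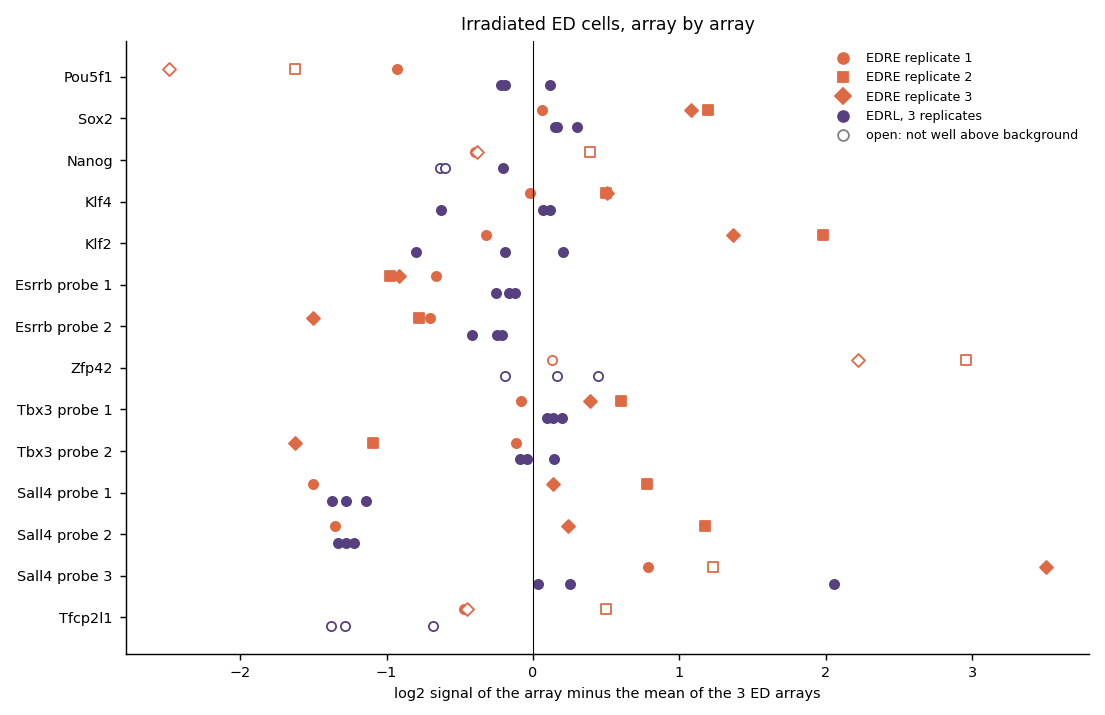
Log2 signal of each probe on each irradiated ED array minus the mean of the 3 ED arrays, marked spots included; open points were not well above background. Replicates 2 and 3 of EDRE lie apart from replicate 1 for Klf2, Sox2 and the first 2 Sall4 probes, and the 3 EDRL arrays lie together near -1.3 for those Sall4 probes.

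In EDRL against ED, 0 of 8 genes changed by the limma test, beside 1.66% of all genes. At an unadjusted p 1 did, Sall4, beside 964 of 23209 genes, and the methods' own test counted 1, beside 874 of 23136. The first 2 Sall4 probes gave -1.26 (SE 0.387, adjusted p = 0.118) and -1.28 (SE 0.415, adjusted p = 0.146), with all 3 EDRL arrays below all ED arrays on both. With only the 6 arrays of ED and EDRL fitted the adjusted p was 0.00208 and 0.00569, and without replicates 2 and 3 of EDRE and replicate 1 of ESRL it was 0.000288 and 0.000166. Over the alternatives it ranged from 0.000288 to 1.000 and from 0.000166 to 1.000. The third Sall4 probe went the other way, at 0.78 (SE 0.597, adjusted p = 0.638), with values of -5.91, -5.69 and -3.89 in EDRL. Pou5f1 gave -0.10 (SE 0.276), Nanog -0.48 (SE 0.245) and Sox2 0.21 (SE 0.242).

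Between EDRL and EDRE, 1 of 7 genes changed, beside 7.78% of all genes. At an unadjusted p 3 did, Pou5f1, Klf2 and Sall4. Pou5f1 was higher in EDRL by a measured 1.58 (SE 0.276, adjusted p = 0.00402), with no overlap. It passed the filter through EDRL alone, the group where it is high, and with both groups required above background it was not tested and the 1 gene counted was Sall4, by its second probe. Within the scan time that held the 3 EDRL arrays and replicate 1 of EDRE, Pou5f1 differed by 0.83, Esrrb by 0.49 and 0.41, the first 2 Sall4 probes by 0.24 and 0.08, Klf2 by 0.06 and Sox2 by 0.14. Tbx3 differed by 0.22 and 0.12. Lower in EDRL were Klf4 at -0.13, Nanog at -0.08, the third Sall4 probe at -0.004 and Tfcp2l1, on no EDRL array well above background, at -0.64. With scan time as a fixed block, which leaves these 4 arrays to carry the comparison, the Pou5f1 value was 0.83 with an adjusted p of 0.118. Klf2 was at -1.27 (SE 0.424, adjusted p = 0.0650), and without replicate 1 of EDRE at -1.94, when 3 genes were counted, beside 5874 of 16684 on the array.

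Between the cell types, the 15-min change differed for 2 of 8 genes, beside 2.09% of all genes. The ES change minus the ED change was a measured 2.30 for Pou5f1 (SE 0.396, adjusted p = 0.0128), made of 0.62 in ES and -1.68 in ED cells. Since 2 of 3 EDRE values were at background, the size and p of this difference are uncertain, and with every group required above background Pou5f1 was not tested. Without the 3 dim arrays EDRE had replicate 1 only. The ES change minus the ED change at 15 min was then 1.55 for Pou5f1 and 1.12 and 1.17 for the Esrrb probes, and no p is given. For Pou5f1 it was 0.48 with normexp (adjusted p = 0.416) and 1.66 with quantile normalization (adjusted p = 0.0581), and Pou5f1 lost its call in 5 of 27 alternatives. For Esrrb it was 1.31 (SE 0.257, adjusted p = 0.0296) and 1.46 (SE 0.268, adjusted p = 0.0170), made of 0.46 and 0.47 in ES and -0.85 and -0.99 in ED cells. The first probe lost its call in 18 of 27 alternatives, among them median scaling, the authors' matrix, the replicate block (1.34, adjusted p = 0.0579) and most single arrays left out, and the second in 7 of 28. Without replicate 2 of ES, replicate 3 of ES or replicate 3 of ESRE the count was 1, Esrrb's second probe then having adjusted p of 0.0534, 0.0503 and 0.0525, and without replicate 1 of EDRE it was 4. The shares of all genes in these fits are not given here. With scan time as a random block the count was 0, but so was that of all 25773 genes, and the differences were 1.96 for Pou5f1 and 1.27 and 1.26 for Esrrb. At 4 h the change differed between the cell types for 0 of 8 genes by the limma test, beside 1.16% of all genes, with 0 at an unadjusted p and 0 with the methods' own test. All comparisons after IR at the 2 times share their unirradiated arrays, and the samples are labelled replicates without word of separate cultures, so the p-values measure only the spread between these samples.

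Other genes of the network were lower in ED as well. Of 16 partners that act with the factors, 15 had a value and 12 were lower and 0 higher, with a median difference of -4.48, beside 26.7% lower and 14.9% higher of all genes with the scaling used here, shares that apply to each list of ED against ES that follows and that moved with the scaling as given above. Genes at background in ED enter these counts and medians. The ED values of Nr5a2, Fgf4, Tdgf1, T, Eomes, the first Elf5 probe, Sox7 and Cdh1 were well above background on 1 or 2 of 3 arrays, so the sizes of their differences are uncertain. Nr0b1, an orphan receptor that binds OCT4, differed by -10.15, Nr5a2, a receptor that can bind the Pou5f1 promoter, by -5.68 and -7.77 on its probes, and Zfp281 by -1.17 and -1.06, while Prdm14, at 1.37 in ES, was above background on 0 ED arrays. The partners not counted were Nacc1, Zfx and Stat3, the kinase-activated factor below the LIF receptor, whose probes gave 0.46, 0.27 and 0.41. Klf5, which can stand in for the other Klf genes, had only marked spots in ES.

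Of 14 genes known as targets of the factors, 13 were lower in ED and 1 higher, with a median of -10.25. Fgf4, which carries a Sox-Oct site in its enhancer, differed by -12.46, Utf1 by -10.38, Fbxo15 by -11.41 and Tdgf1, a Nodal co-receptor, by -10.12. Spp1, which encodes osteopontin, was the one higher, at 2.28 (adjusted p = 3.20e-06), and it is also made by many mesenchymal cells.

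The formative and primed genes, which are known to come up as naive factors decline, were low in ED too. Of 14, 12 were lower and 0 higher, with a median of -5.04, and Dnmt3a and Etv4 were not counted. Otx2, at 2.27 in ES, and Fgf5, at -0.94, were above background on 0 ED arrays, so no size is given. Pou3f1 differed by -4.14 and Zic2 by -4.12.

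Paralogs of the factors did not move as one. Of 24, 23 were on the array, 19 had a value, 8 (42.1%) were lower and 2 (10.5%) higher in ED, beside 26.7% and 14.9% of all genes, and the median was -0.17. The octamer-binding Pou2f1 differed by -1.44, -1.43, -1.54 and -1.35 on its 4 probes, Pou3f1 as above, and Sox3, which can act for Sox2, by -6.73, while Sox1 was not counted at 0.73 (adjusted p = 0.255). The 2 higher were Klf6, at 1.03 (adjusted p = 0.00273), and Tbx5, at 5.95 (adjusted p = 4.88e-08). Tbx2 was lower, as were the T-box genes T and Eomes. Arrays set to their medians would add 0.64 to the median of all probes here and quantile normalization 0.41, and of 111 list genes with a value 92 were counted, and 89 and 87 with these scalings.

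Markers of cell types were set beside these values. Of 14 mesoderm and mesenchymal markers, 8 were higher in ED (Acta2, Vim, Col1a1, Col1a2, Col3a1, Twist1, Snai2 and Pdgfrb) and 5 lower, with a median of 1.90. Their summed signal was 37.2 times the 75th percentile in ES and 380 times in ED, with Vim the brightest gene on every ES and ED array. The 5 lower were brachyury (T) at -6.48, Kdr at -3.91, Tagln at -2.81, and Mesp1 and Thy1, which were above background on 0 ED arrays, and Hand2 was not counted at 0.09. Tagln and Thy1 are also used as mesenchymal markers, so the list had such markers on both sides. All 10 trophectoderm markers were lower in ED, with a median of -6.18 and a summed signal of 156 in ES and 2.14 in ED. In ES all 10 were well above background. Krt8 was the brightest of them on every ES array and Esx1 on every ED array. Tfap2c differed by -9.18 and -7.74, Eomes by -3.17 and the first Elf5 probe by -2.21, while Cdx2 and the second Elf5 probe were above background on 0 ED arrays. The part of these markers in the values of the 10 genes was not tested.

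Of 8 primitive endoderm markers with a value, 5 were lower in ED and 2 higher, Pdgfra at 3.87 and 3.96 and Dab2 at 2.06 to 2.16 on its probes. Gata4 differed by -1.33, Sox17 by -4.00 and Sox7 by -5.20, Foxa2 was above background on 0 ED arrays, and the list summed to 22.4 in ES and 8.81 in ED. Lama1 was the brightest of the list on every ES array, and Pdgfra or Dab2 on the ED arrays. Of 10 neural markers, 6 were lower and 1 higher (Map2, at 1.82 and 1.94), with a median of -0.98 and sums of 5.60 and 7.75. Nes was the brightest of them on every ES and ED array, so these sums say little of the other neural genes. Pax6 differed by -1.41, while Nes at 0.55 and Tubb3 at -0.38 were not counted. Of 6 blood and immune markers with a value, 4 were lower and 1 higher, Cd14 at 4.52, and the pan-leukocyte gene Ptprc was above background on 0 arrays of ES and of ED. All 6 stem cell surface and enzyme genes were lower, with a median of -9.85 and a summed signal of 74.3 in ES and 0.0680 in ED. The brightest of these genes was Cdh1 on every ES array and Fut4 on every ED array. Among them Fut4 differed by -2.19 and Cdh1 by -13.27, while Alpl and Epcam were above background on 0 ED arrays. The SSEA1 epitope used to define ED cells was not measured on these arrays.

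**Figure D5:**
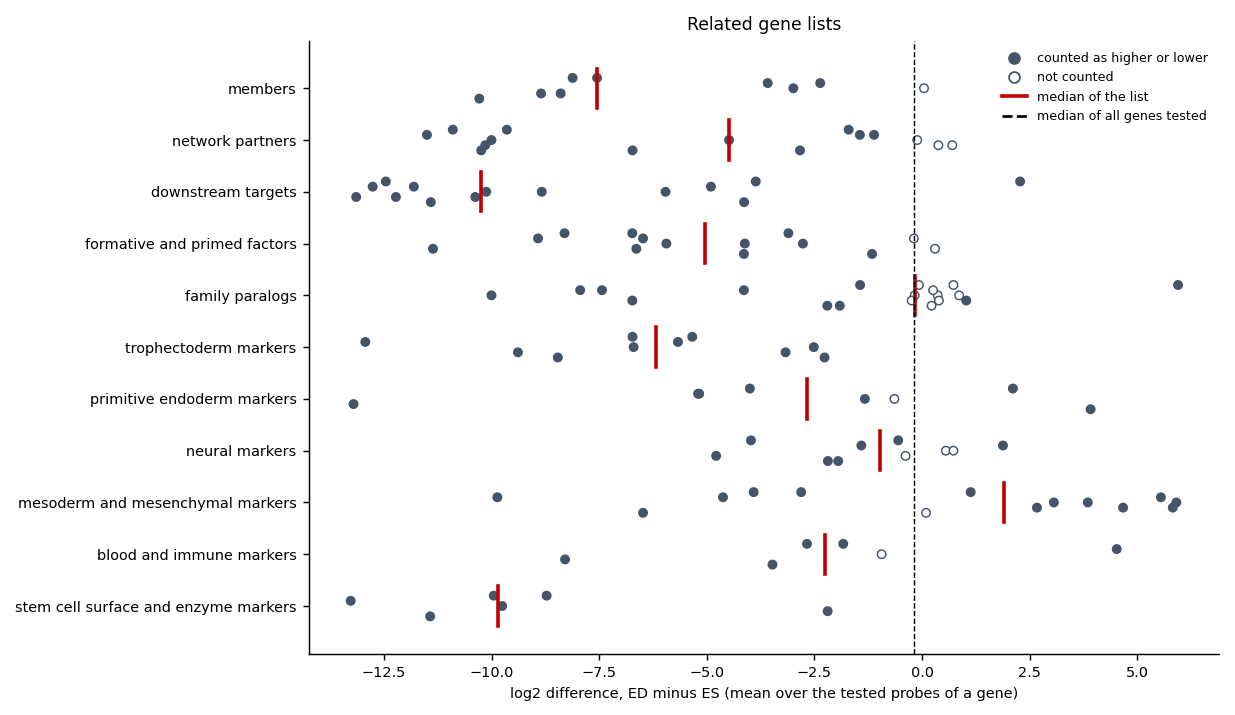
Log2 difference of ED from ES for the genes of each list, as the mean over a gene's tested probes; filled points have a probe counted as higher or lower, red bars are list medians and the dashed line is the median of all genes tested, -0.19. Of the 9 factors with a value, with a median of -7.55, 8 lie far to the left, as do most partners, targets and formative genes. Klf4 at 0.05, the partner Stat3 and the target Spp1 lie to the right of the dashed line, and mesenchymal genes lie on both sides.

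After IR the list genes were counted in these numbers, beside the shares of all genes. In ESRE against ES 0 of 107 were counted by the limma test (0.463% of all genes), in ESRL against ES 5 of 110 (7.59%), all lower: Gata4 at -1.07, Sox17 at -1.18, Pdgfra at -1.40 and -1.16, 1 of 2 probes of Gfap at -1.76 and Hand2 at -1.73. In ESRL against ESRE 3 of 105 were (5.22%), with Zic2 at -1.49, Gfap at -1.72 and Hand2 at -1.61. The EDRE values that follow include the dim arrays. In EDRE against ED 6 of 73 were (5.20%), the target Spp1 at 1.04, Klf6 at 1.17 and Dab2 at 1.16 upward and Klf7 at -1.22, Tfap2c at -1.76 and Sox17 at -1.44 downward, and in EDRL against ED 1 of 75 (1.66%), Esrra, the paralog of Esrrb, at 1.16. Between EDRL and EDRE 7 of 73 were (7.78%): Lin28a at 1.41, Klf7 at 1.41 and Esrra at 1.19 were higher, and Zfx at -1.01, Klf6 at -1.68, Dab2 at -1.27 and Pax6 at -1.39 lower. The 15-min difference between the cell types was counted for 2 of 107 (2.09%), Sox3 at 1.08 and Klf6 at -1.62, and the 4-h difference for 0 of 110 (1.16%).

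For Pou5f1, Sox2 and Klf4, the genes with the most similar profile over the 18 arrays were sought, with marked spots kept. They came from 13895 genes named in RefSeq and well above background on all 9 ES-derived arrays. The factors followed here were themselves left out. Likeness was the root mean square difference of log2 profiles centered on their means. The most similar genes for Pou5f1 were Hspb1 (0.571), Fbxo15 (0.610) and Fxyd6 (0.643), with 0 genes within 0.5. For Sox2 they were Rybp (0.214), Fig4 (0.223) and Slc16a6 (0.223), with 541 genes within 0.5. For Klf4 they were Eml5 (0.198), Rbm18 (0.205) and 0610010F05Rik (0.206), with 3175 genes within 0.5. Among the genes compared, few profiles thus came near that of Pou5f1, and many near that of Klf4, which varied little.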

How the data were processed

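The authors deposited scanner text files from Agilent Feature Extraction, 9.1 in the labels and a later release in the file headers. The deposited signals are intensity values per spot with background removed and no scaling across arrays. A matrix from the authors holds log2 values of 30133 probes whose columns have medians between 0.57 and 0.72. Its scale and direction could be read from the signals, and what its columns were centred on is not stated. Of 22522 probes with an mRNA accession, 21963 matched RefSeq. Control spots and spots marked as outliers were left out, and log2 signals were set relative to the 75th percentile. A linear model of 6 groups over 18 arrays was fitted with limma 3.58.1 (R 4.3.3), by least squares for each pattern of missing spots, with Benjamini-Hochberg adjustment over all probes tested. A gene of the blood list is not reported here. The members and lists were chosen with earlier results of these data known. From each list the first 4 genes with values were named, together with those changed after IR and those described as exceptions, the latter chosen after their values were seen. In all, 16 alternatives, 18 left-out arrays and 1 added later were tried.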

Additional observations from a re-analysis of the deposited data

Results flagged for a closer look

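Between the cell types the change 15 min after IR differed, by a test of the difference itself, for Pou5f1 (ES change minus ED change 2.30) and for both probes of Esrrb (1.31 and 1.46). Pou5f1 lost its call in 5 of 27 alternatives (0.48 with normexp), the first Esrrb probe in 18 of 27 alternatives and the second in 7 of 28. On 2 of 3 EDRE arrays Pou5f1 was at background, so the size of its difference is uncertain, and it was not tested when every group had to be above background. Both genes had values above ES in ESRE and below ED in EDRE on all 3 arrays. Without the 3 dim arrays, which leaves EDRE with replicate 1 only, the differences were 1.55 for Pou5f1 and 1.12 and 1.17 for the Esrrb probes. The parts of scan time and of the dimness of replicates 2 and 3 of EDRE were not separated by the design, and the cause was not tested.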

How the results depend on the processing

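Of 3079 values of single probes under other settings, 2852 kept their direction and their side of the threshold, 137 values that were not counted moved, 42 gained a call, 46 lost one and 2 turned. The 2 that turned were of the second Sall4 probe without replicates 2 and 3 of EDRE and replicate 1 of ESRL: EDRE against ED was -1.35 in place of 0.02, and the 15-min difference between cell types 1.14 in place of -0.24. EDRE then had 1 array, replicate 1. Genes lower in EDRE than in ESRE were 5 of 6, in place of 8 of 9, where both groups had to be well above background, since fewer genes were then tested. No share of all genes is given here for that filter. Genes changed in ESRL against ES were 1 in place of 0 with marked spots kept and in the authors' matrix, settings for which no share of all genes is given here. In EDRE against ED, in place of 1, they were 2 with median scaling, quantile normalization, marked spots kept, no fold limit and the matrix, 0 with the strict filter, the random block of scan time, only the arrays compared and the methods' t-test after adjustment, and 1 to 5 with 1 array left out. Beside these, 1165 of 22404 genes of the array changed as reported, 1887 with median scaling, 1185 with quantile normalization, 3081 with normexp (2938 higher), 1758 with marked spots kept, 1746 with no fold limit, 2095 with the matrix, 737 with the strict filter, 1 with the random block, 0 with only the arrays compared and 1 with the adjusted t-test. With normexp and without the dim arrays the count stayed 1 with another gene, Pou5f1 losing its call and Sall4 gaining one (its last probe at 2.03 with normexp, its other probes lower without the dim arrays, as in the value that turned). In EDRL against ED genes changed were 1 in place of 0 with only the arrays compared and without the dim arrays. They were also 1 with the methods' t-test, adjusted or not, and the share of all genes under these settings is not given here. In EDRL against EDRE, in place of 1, genes changed were 2 with median scaling and no fold limit, 3 with quantile normalization, marked spots kept and the matrix, 0 with normexp, either block of scan time, only the arrays compared and the adjusted t-test, and 1 to 3 with 1 array left out. Without the dim arrays, with 1 EDRE array, Pou5f1 was at 0.83 and no count is given. Genes of the array were 1716 as reported, then 1811, 2548, 1654, 3055 and 2537, and 1917, 664 (random), 612 (fixed), 59 and 4, in the same order. For the 15-min difference, in place of 2, genes counted were 0 with quantile normalization, normexp and the random block, 1 with the strict filter and the adjusted t-test, 3 with the unadjusted t-test, where Sall4 joined by its last probe (-2.45), and 1 to 4 with 1 array left out. Without the dim arrays, with 1 EDRE array, the second Sall4 probe was at 1.14 and no count is given. Genes of the array were 538 as reported, then 392, 58, 0, 265, 415 and 3136, in the same order. The scalings moved the median of all probes in EDRE against ED by 0.25 (median) and 0.56 (normexp). The cause was not tested. Without EDRE replicate 1 the spread is estimated from the remaining arrays. The random block had a consensus correlation of 0.81 over 5839 probes, and a fixed block could be fitted only for ESRL against ESRE and EDRL against EDRE. Samples with the same replicate number did not deviate together (r of -0.37 to 0.30 over 45 pairs, over 0.1 in 7), and a replicate block left every count within 1.5 times, at 8, 8 and 8 for the ED differences, 0, 0 and 0 in ES cells, 1, 0 and 1 in ED cells, and 2 and 0 for the differences between cell types. Signals near background limit Zfp42, Tfcp2l1, Nanog and Pou5f1 in the ED-derived groups.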
